A study of Mus musculus with 11 samples.

Results

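The pancreas of 18-month-old mice was compared with that of 7-week-old mice after both had received caerulein, to show how age bears on the start of pancreatitis. The comparison used 6 of the 11 libraries of the series, those labelled as caerulein treated, with 3 at each age and 1 mouse per library. All mice were C57BL/6JRj from one supplier, fed chow, and the labels name no engineered allele. Each of the 6 had caerulein injected into the abdomen at 125 µg/kg each hour over 4 hours, and the libraries carry the label 5H. That label is printed as it stands, since the notes on sampling time can be read in more than 1 way. The other 5 libraries, from untreated mice of 7 weeks (3) and of 18 months (2), enter only where named. Each library holds messenger RNA of whole pancreas, so fewer cells of a type and less RNA per cell cannot be told apart in any value below.

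Caerulein acts on the cholecystokinin receptor of acinar cells, the enzyme-secreting cells that make up most of the exocrine pancreas. At high dose it blocks secretion, raises calcium for long periods and activates digestive enzymes inside the cell, which gives a mild, self-limited pancreatitis in mice. Injured acinar cells load their endoplasmic reticulum with misfolded protein, switch on early response and heat shock genes, lower the genes of their own identity and take on features of duct cells, a change named acinar-to-ductal metaplasia.

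The 6 libraries held between 14223190 and 24879534 counts. Levels below are CPM, counts scaled to a common library size, after TMM scaling, a correction for differences in library composition, and a gene was called when edgeR's quasi-likelihood test gave a Benjamini-Hochberg adjusted p below 0.05. In a principal component analysis the leading axis (43.5% of the variance) separated young from aged mice, with the 7-week libraries between -36.2 and -21.2 and the 18-month libraries between 26.8 and 31.3. All 8 acinar markers were detected, and their summed level was 143478 to 151205 CPM of library totals at 7 weeks and 159308 to 170587 CPM at 18 months, so the labelled tissue showed its defining transcripts. Digestive enzyme transcripts took 59.5% ± 1.13 (SD, n = 3) of the counts at 7 weeks and 58.5% ± 1.98 (n = 3) at 18 months, a difference within the spread between mice (2-sided exact permutation p = 0.4, where 0.1 is the smallest p that 3 against 3 allows). The library of 7-week mouse 2 stood apart from the other 5 in neutrophil transcripts and in heat shock genes, and results on these are given with and without it.

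Of 12439 genes tested, 971 were higher at 18 months (7.81%) and 715 were lower (5.75%). Of these, 240 were at least 2-fold higher and 188 at least 2-fold lower. The median log2 fold change of all genes tested was -0.01. With library totals in place of TMM the count became 483 higher and 805 lower, so that 37.5% of the called genes were higher in place of 57.6%. Leaving out 1 library at a time gave 581 to 811 higher and 376 to 532 lower genes. The count of higher genes moved by over 1.5 times without 7-week mouse 3 (581) and 18-month mouse 2 (645). That of lower genes did so without 7-week mouse 1 (450), 7-week mouse 3 (376), 18-month mouse 1 (401) and 18-month mouse 2 (423). The 2 ages did not overlap in 4174 genes, 33.6% of those tested. In the authors' deposited table of the same comparison, 941 genes were higher and 617 lower of 21565 rows, and 858 of those higher and 579 of those lower were also called here.

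**Figure D1:**
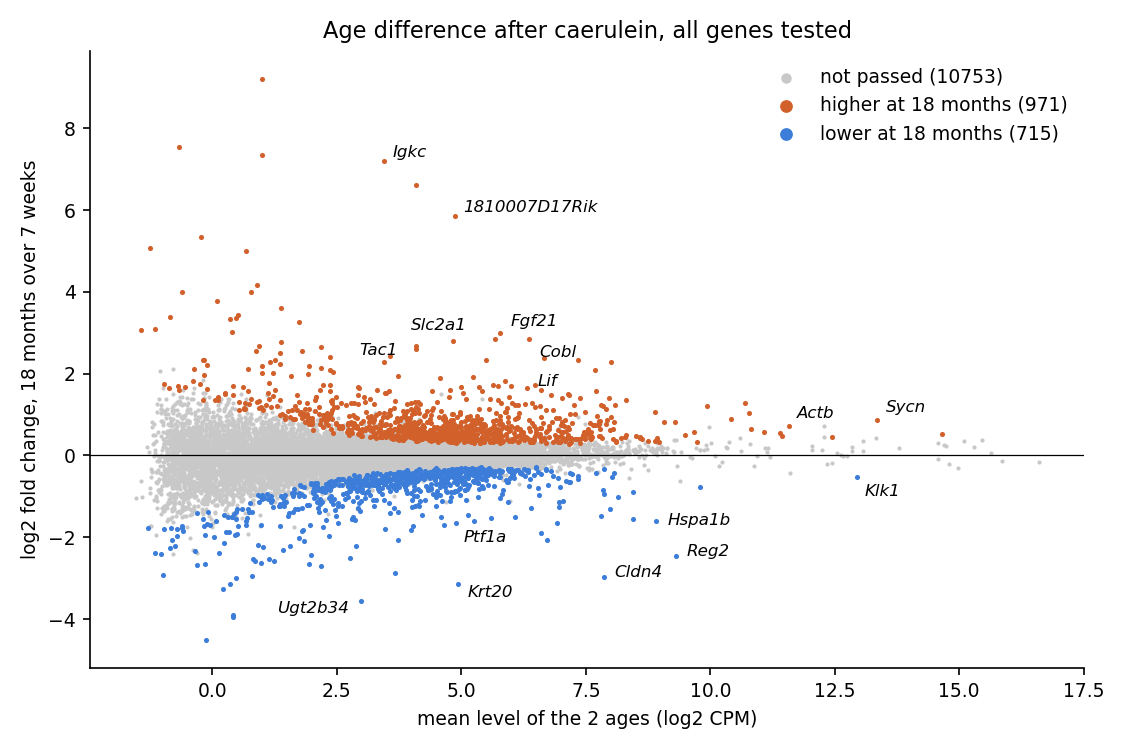
Log2 fold change of 18 months over 7 weeks (vertical axis) against the mean level of both ages in log2 CPM (horizontal axis) for the 12439 genes tested in caerulein-treated pancreas, with 971 called higher (orange), 715 called lower (blue) and the rest grey. Fgf21, Cobl and Slc2a1 stand among the higher genes of middle level, Reg2 and Cldn4 among the lower genes of high level, and the genes above 4 on the vertical axis have low levels at 7 weeks.

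Among genes that met the naming rule (called, libraries not overlapping, at least 5 CPM at the higher age, no predicted, pseudogene or immunoglobulin loci), the 12 with the largest increase at 18 months included a stress hormone, a cytoskeletal protein, a glucose carrier and a neuropeptide. Fgf21, a secreted factor that exocrine tissue and liver make under metabolic stress (chromosome 7, 45613886 to 45615490, mm10), was at 13.8, 10.5 and 12.2 CPM at 7 weeks and 139, 69.7 and 82.7 CPM at 18 months. Its log2 fold change was 3.00 ± 0.24 (SE; adjusted p = 5.92e-05), and the 18-month library of mouse 1 was the highest. Cobl, an actin nucleator of epithelial cells, was at 19.5, 17.8 and 22.7 CPM at 7 weeks and 136, 154 and 143 CPM at 18 months (2.86 ± 0.11, adjusted p = 4.92e-07), with a narrow spread at each age. Slc2a1, the glucose transporter GLUT1, was at 9.12, 6.94 and 5.07 CPM at 7 weeks and 42.4, 50.4 and 56.4 CPM at 18 months (2.81 ± 0.18, adjusted p = 2.27e-05). Tac1, which encodes substance P, a neuropeptide linked to pain and to inflammation in pancreatitis, was at 4.83, 4.57 and 5.01 CPM at 7 weeks and 34.2, 28.1 and 25.2 CPM at 18 months (2.61 ± 0.14, adjusted p = 7.24e-06). In each of these genes the lowest 18-month library lay above the highest 7-week library. The 12 also held the osteocalcin-related gene Bglap3 (log2 fold change 2.84 ± 0.24), the kinase Aatk (2.68 ± 0.19) and Nags, which makes the activator of the urea cycle (2.55 ± 0.35). Runx1, a transcription factor of blood and injured epithelium, was at 2.43 ± 0.21, the cilium gene Cfap53 (2.41 ± 0.37) and Fgl2, a fibrinogen-like protein (2.37 ± 0.16). The exchange factor Ralgds (2.34 ± 0.20) and the transcriptional repressor Zfp703 (2.32 ± 0.23) were the remaining members.

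The most abundant transcripts higher at 18 months were of the secretory and structural apparatus, with small changes. Sycn, a zymogen granule protein, was at 7065, 7598 and 7627 CPM at 7 weeks and 13042, 15822 and 11849 CPM at 18 months (log2 fold change 0.87 ± 0.13, adjusted p = 0.00148). Cel, the bile salt-stimulated lipase, had a log2 fold change of 0.52 ± 0.11, and the cytoplasmic actins Actb and Actg1 had 0.71 ± 0.11 and 0.45 ± 0.11. Krt18, the keratin partner of Krt8, was at 0.47 ± 0.12. Sycn and Actb kept their call in each refit that left out 1 library, whereas Cel, Actg1 and Krt18 lost it in 2, 3 and 4 of the 6 refits.

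By the same rule the 12 largest decreases included a drug-conjugating enzyme, epithelial junction and keratin genes and Reg lectins. Ugt2b34, a glucuronosyltransferase, was at 12.7, 14.6 and 16.4 CPM at 7 weeks and 1.83, 0.636 and 1.12 CPM at 18 months (log2 fold change -3.56 ± 0.27, adjusted p = 5.07e-05). Krt20, a keratin of intestinal and metaplastic epithelium (chromosome 11, 99428403 to 99438150), was at 57.8, 65.2 and 40.6 CPM at 7 weeks and 5.21, 8.16 and 5.13 CPM at 18 months (-3.15 ± 0.21, adjusted p = 2.41e-05). Cldn4, a claudin of tight junctions (chromosome 5, 134945119 to 134946934), was at 503, 472 and 259 CPM at 7 weeks and 43.9, 73.7 and 39.9 CPM at 18 months (-2.97 ± 0.28, adjusted p = 0.000161). The highest 18-month library of either gene was below the lowest 7-week library, and 7-week mouse 3 was the lowest of its group in both. Among the 12 were also the tissue kallikrein Klk1b24 (-2.86 ± 0.41), whose reads can be shared with its close paralogs, the kinase Sgk2 (-2.70 ± 0.25) and the cytoskeletal adaptor Obsl1 (-2.43 ± 0.25). Cnbd2 (-2.21 ± 0.23), the secretory carrier protein Scamp5 (-2.10 ± 0.31), the threonine-degrading enzyme Tdh (-2.06 ± 0.21) and the claudin Cldn6 (-2.03 ± 0.30), completed the group with 2 Reg genes. Among abundant transcripts Klk1, the main tissue kallikrein, went from 9264 ± 554 to 6438 ± 967 CPM (-0.53 ± 0.13, adjusted p = 0.0232), a call lost in 4 of 6 refits without 1 library. Cep85, a centrosomal protein, went from 524 ± 126 to 178 ± 18.5 CPM (-1.56 ± 0.17, adjusted p = 0.000292).

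Reg lectins are secreted by acinar cells and are classic markers of pancreatic injury. Reg2 was at 1572, 1285 and 392 CPM at 7 weeks and 222, 101 and 265 CPM at 18 months (log2 fold change -2.47 ± 0.46, adjusted p = 0.00608), Reg3a at 16.8, 15.01 and 3.07 against 2.496, 1.10 and 2.57 CPM (-2.50 ± 0.53) and Reg3b at 217, 168 and 77.3 against 62.3, 33.7 and 27.2 CPM (-1.90 ± 0.36). In all 3 the 7-week mouse 3 was well below the other 7-week mice, and it lay just above the highest 18-month mouse without overlapping. Reg3a lost its call without 18-month mouse 2 (adjusted p = 0.0521), and reads of the Reg3 genes can be shared between them. Reg1, the most abundant member, did not differ beyond its spread (0.02, adjusted p = 0.948), nor did Reg3g (-0.35, adjusted p = 0.622). Of the 19 tested Reg lectins, acute phase proteins and metallothioneins, 4 were lower and 1 was higher, the metal-binding Mt1 (0.54 ± 0.12, adjusted p = 0.0148), whose call was lost in 3 of 6 refits without 1 library.

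Across 36 pathway lists, the share of members called was far from even. Among all genes tested 7.81% were higher and 5.75% lower, and these shares are the measure for each count below. The share called higher was largest for MHC class II (4 of 6), endoplasmic reticulum folding (18 of 30) and immediate early genes (19 of 41), and the share called lower for heat shock proteins (12 of 24). Circadian clock genes were called in both directions (6 higher, 7 lower of 21).

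**Figure D2:**
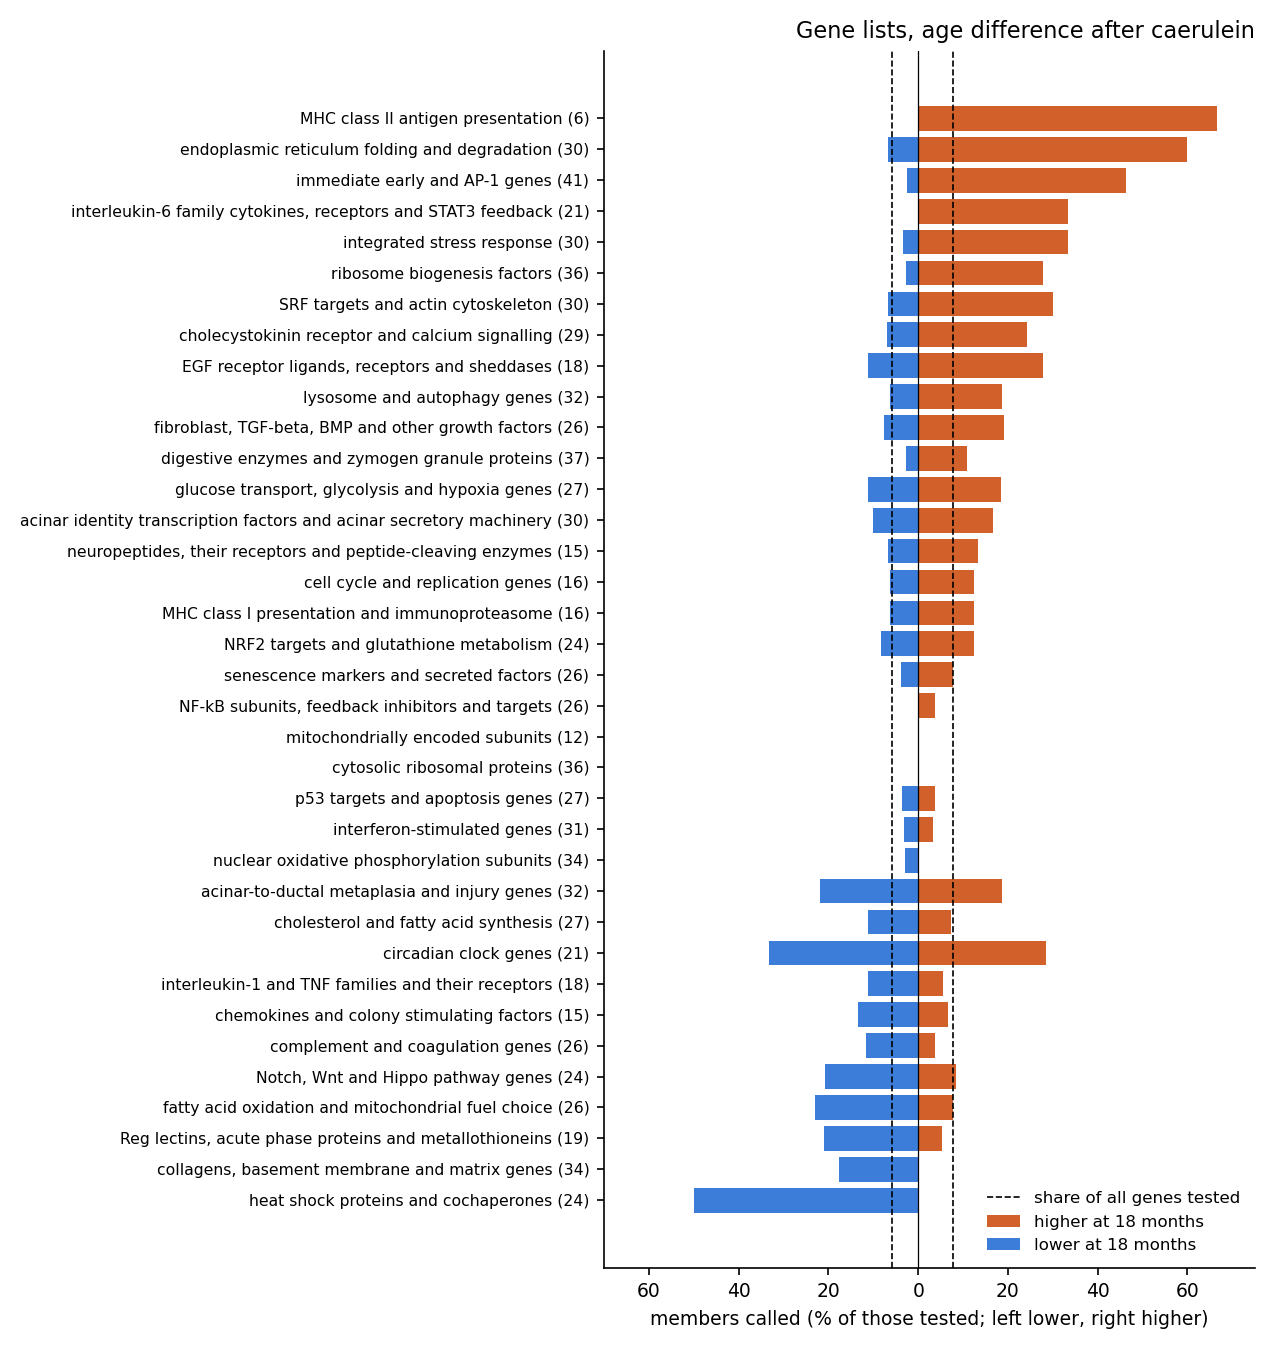
Share of tested members called higher (orange, to the right) or lower (blue, to the left) at 18 months for 36 pathway lists, in percent, with the number tested in brackets and dashed lines at the shares over all genes tested, 7.81% higher and 5.75% lower. Heat shock proteins (12 of 24) have the longest bar on the left, endoplasmic reticulum folding (18 of 30) one of the longest on the right, and cytosolic ribosomal proteins have no bar in either direction.

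Genes that fold proteins in the endoplasmic reticulum, and remove those that fail to fold, were mostly higher at 18 months. Of 30 tested, 18 were higher and 2 lower, with a median log2 fold change of 0.40. The factors with the largest changes are classic targets of the unfolded protein response, the transcriptional programme that answers crowding of this compartment. Creld2, a secreted stress protein, was at 20.8, 23.6 and 19.7 CPM at 7 weeks and 52.0, 46.0 and 93.7 CPM at 18 months (log2 fold change 1.57 ± 0.23, adjusted p = 0.00143). Sdf2l1, which works with the chaperone BiP, was at 12.8, 13.98 and 12.3 CPM at 7 weeks and 33.3, 27.3 and 37.1 CPM at 18 months (1.32 ± 0.13, adjusted p = 0.000161). Hyou1, a large chaperone, was at 63.9, 59.97 and 49.97 CPM at 7 weeks and 146, 122 and 132 CPM at 18 months (1.21 ± 0.12, adjusted p = 0.000161). In each of them all 18-month libraries were above all 7-week libraries. Derl3, of the channel that returns misfolded proteins to the cytosol, was at 26.9, 25.6 and 35.3 against 67.5, 58.3 and 67.5 CPM (1.14 ± 0.13), the ubiquitin ligase Syvn1 at 48.5, 51.4 and 41.4 against 88.8, 80.1 and 92.5 CPM (0.89 ± 0.11) and the chaperone Hsp90b1 at 86.7, 87.8 and 74.8 against 151, 138 and 178 CPM (0.91 ± 0.12). Hspa5, which encodes BiP itself, was at 1304, 1536 and 1366 against 2234, 2096 and 2225 CPM (0.64 ± 0.11, adjusted p = 0.00303). Sel1l, the partner of Syvn1 in disposal, and Edem2, which selects glycoproteins for it, were lower at -0.58 ± 0.12 and -0.43 ± 0.10. Neither was called without 7-week mouse 3, and Edem2 also not without 7-week mouse 1 or 18-month mouse 2. The count of higher members was 12 to 16 when 1 library was left out and 12 with library totals. The plasma cell markers Jchain and Ighm were higher in the same libraries, as described below, and plasma cells also express Derl3 and other genes of the list. Their part in the result was not tested.

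The upstream windows of 3 of these genes are printed because each holds the ER stress element, the joint binding site of NF-Y and ATF6. The letters searched were CCAAT, then 9 bases of any kind, then CCACG on either strand, in windows of 250 bases before to 50 bases after each start in RefSeq (GRCm38.p6). Of the 18 higher members 14 had a window, and 8 of these 14 held the motif. It was in 39 of 32851 windows of all promoters (0.119%). Members that did not pass had it in 1 of 9 windows. The 200 bases before the start are shown 5′ to 3′ on the gene's strand, with the motif in capitals. Creld2 is at chr15:88819446-88819645 on the plus strand, Derl3 at chr10:75893198-75893397 on the plus strand and Syvn1 at chr19:6046376-6046575 on the plus strand.
Creld2: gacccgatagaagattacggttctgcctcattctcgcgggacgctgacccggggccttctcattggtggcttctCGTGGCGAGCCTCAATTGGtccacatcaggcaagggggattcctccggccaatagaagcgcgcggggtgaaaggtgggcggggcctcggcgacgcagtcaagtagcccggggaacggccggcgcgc
Derl3: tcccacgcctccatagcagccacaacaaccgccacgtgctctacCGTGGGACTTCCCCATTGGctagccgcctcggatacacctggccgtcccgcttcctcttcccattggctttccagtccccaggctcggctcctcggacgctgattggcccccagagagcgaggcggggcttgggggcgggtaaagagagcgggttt
Syvn1: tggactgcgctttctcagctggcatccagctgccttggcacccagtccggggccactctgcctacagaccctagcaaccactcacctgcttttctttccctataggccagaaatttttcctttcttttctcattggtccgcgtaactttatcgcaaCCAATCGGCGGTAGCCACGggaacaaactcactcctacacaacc
The motif lies 126 bases before the start in Creld2 and 156 in Derl3, in both on the opposite strand, and 44 bases before the start in Syvn1. A match is a description of the letters and no evidence of binding in these mice.

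Heat shock proteins and their cochaperones, of the cytosol and mitochondria, had members called lower. Of 24 tested, 12 were lower at 18 months and 0 higher by edgeR (median log2 fold change -0.50; 1 was higher at an unadjusted p below 0.05 and 1 by DESeq2), beside 5.75% of all genes lower. Hspa1b and Hspa1a, the inducible chaperones of the HSP70 family, were at 557, 1094 and 506 against 279, 209.6 and 221 CPM (log2 fold change -1.60 ± 0.26, adjusted p = 0.00251) and 245, 529 and 211 against 136, 110.1 and 106 CPM (-1.48 ± 0.29, adjusted p = 0.00741). Their transcripts are nearly identical, so reads may be split between them. Hsph1, a nucleotide exchange factor for HSP70, was at 131, 264 and 134 against 76.7, 78.2 and 67.7 CPM (-1.25 ± 0.23, adjusted p = 0.00583), the co-chaperone Bag3 at 133, 250.4 and 130.2 against 86.2, 79.5 and 68.9 CPM (-1.13 ± 0.22) and Dnaja1 at 285, 503 and 349 against 203, 192 and 162 CPM (-1.03 ± 0.18). In each of these 5 genes 7-week mouse 2 was the highest library, and the other 7-week mice still lay above every 18-month mouse. The mitochondrial chaperonins Hspe1 (-1.13 ± 0.23) and Hspd1 (-0.83 ± 0.21), the small heat shock protein Hspb1 (-0.93 ± 0.15) and the co-chaperones Chordc1 (-0.88 ± 0.15), Dnaja4 (-0.87 ± 0.18) and Dnajb1 (-0.52 ± 0.14) were also lower, as was the cytosolic chaperone Hsp90aa1 (-0.76 ± 0.21, adjusted p = 0.0369). The constitutive Hspa8 was not called (0.08, adjusted p = 0.773). Without 7-week mouse 2 the list had 10 lower and 2 higher members. Hspa1b was then at -1.17 (adjusted p = 0.00131) and Hspa1a at -0.96 (adjusted p = 0.00265), while Hsp90aa1 was at -0.47 and no longer passed (adjusted p = 0.106). Hsp90aa1 also lost its call with DESeq2 and without 3 other libraries, Hspd1 with DESeq2 and without 2 libraries, and Dnajb1 without 4 libraries in turn.

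The heat shock element is the binding site of heat shock factors, and the windows of 3 lower members show it. Facing copies of its unit, spelled GAANNTTC, were searched on both strands in the same RefSeq windows. The motif was in 11 of 17 windows of the lower members (64.7%), which is 10 of the 11 genes with a window, against 2582 of 32851 windows of all promoters (7.86%) and 2 of 8 windows of members that did not pass. In the sequences below capitals mark the motif. Hspa1a is at chr17:34972157-34972356 on the minus strand, Hspa1b at chr17:34959239-34959438 on the minus strand and Hspb1 at chr5:135887719-135887918 on the plus strand.
Hspa1a: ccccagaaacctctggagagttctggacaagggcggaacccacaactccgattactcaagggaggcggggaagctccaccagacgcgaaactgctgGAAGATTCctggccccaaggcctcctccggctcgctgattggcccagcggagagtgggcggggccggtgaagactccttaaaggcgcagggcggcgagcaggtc
Hspa1b: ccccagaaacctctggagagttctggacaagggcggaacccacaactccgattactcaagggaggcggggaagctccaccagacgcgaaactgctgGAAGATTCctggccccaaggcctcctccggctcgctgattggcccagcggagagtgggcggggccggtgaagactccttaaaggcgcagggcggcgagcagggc
Hspb1: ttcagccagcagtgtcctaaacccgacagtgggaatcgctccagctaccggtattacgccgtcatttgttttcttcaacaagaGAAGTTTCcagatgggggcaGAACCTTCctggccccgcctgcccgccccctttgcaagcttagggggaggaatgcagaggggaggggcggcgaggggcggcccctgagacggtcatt
The 200 bases of Hspa1a and Hspa1b differ at 1 position, and both have the motif 104 bases before the start. Their windows are therefore not independent of each other in the share of lower members given above. Hspb1 has 2 copies, at 117 and 97 bases before the start. As above, these are letters found in a window, not measured sites.

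The integrated stress response, which slows translation and raises amino acid supply under stress, had 10 of 30 members higher and 1 lower. Beside Fgf21 these were Slc7a1, an importer of arginine and lysine (133, 148 and 135 against 280.3, 313 and 367 CPM, a log2 difference of 1.20 ± 0.12, adjusted p = 0.000168), and Chac1, which degrades glutathione (862, 1016 and 1006 against 2119, 1369 and 1819.8 CPM, 0.88 ± 0.15, adjusted p = 0.00417). Aldh1l2, a mitochondrial folate enzyme, was at 0.82 ± 0.13. Gdf15, a secreted stress signal, was at 5.94, 8.99 and 7.76 against 19.0, 8.62 and 21.1 CPM (1.10 ± 0.29, adjusted p = 0.029). The 18-month mouse 2 lay within the range of the 7-week libraries, and the call was lost in 4 of 6 refits without 1 library. Ddit3, the death-linked factor CHOP, was not called (14.9, 13.5 and 12.9 against 17.8, 6.42 and 11.7 CPM, adjusted p = 0.703), nor was the stress gene Nupr1 (adjusted p = 0.934). The count of higher members was 6 without 7-week mouse 1, 7-week mouse 3 or 18-month mouse 1, and 6 with library totals. Ribosome biogenesis factors had 10 of 36 higher and 1 lower, led by Wdr75 (0.66 ± 0.12), but only 1 was higher with library totals and 1 to 5 without 1 library. For these factors the median log2 fold change was 0.23. Cytosolic ribosomal proteins themselves had 0 of 36 called in either direction by edgeR or DESeq2, and 0 at an unadjusted p below 0.05.

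Of 41 immediate early and AP-1 genes tested, 19 were higher and 1 lower, with a median log2 fold change of 0.49. These genes are transcribed within minutes of a stimulus and encode transcription factors and the phosphatases that end the signal. Csrnp1, a nuclear early response protein, was at 96.7, 106 and 70.8 against 202, 194 and 246 CPM (1.23 ± 0.15, adjusted p = 0.000628), Ier5 at 25.4, 34.3 and 29.4 against 59.8, 71.0 and 98.6 CPM (1.36 ± 0.18) and the transcription factor Klf4 at 19.4, 22.9 and 19.9 against 41.8, 36.3 and 48.5 CPM (1.02 ± 0.12). The MAP kinase phosphatases Dusp5 and Dusp1 were at 54.4, 76.7 and 44.5 against 178, 124 and 188 CPM (1.48 ± 0.20) and 47.0, 55.8 and 35.7 against 90.5, 97.4 and 143 CPM (1.25 ± 0.19). All 3 libraries of 18 months lay above those of 7 weeks in each. Dusp2 had the largest fold of the list (3.61 ± 0.55) at low levels (0.849, 0.14 and 0.188 against 6.86, 2.78 and 4.87 CPM). Fos and Egr1 varied more, with 41.4, 56.2 and 27.5 against 143, 69.4 and 82.8 CPM and 112, 191 and 109 against 548, 330.0 and 213 CPM, and lost their calls in 3 and 2 refits without 1 library (adjusted p = 0.0161 and 0.014 with all 6). Atf3, a stress factor of injured acinar cells, was at 0.47 (adjusted p = 0.0347) and lost its call in 5 of 6 refits. Nr4a3 was the lower member (-1.12 ± 0.21, adjusted p = 0.00563), and Myc was not called (0.13, adjusted p = 0.52). Without 7-week mouse 3 the list had 11 higher members, and with library totals 13.

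The interleukin-6 family list, which holds its cytokines, receptors and STAT3 feedback genes, had 7 of 21 higher and 0 lower by edgeR, with 0 lower also at an unadjusted p below 0.05 and by DESeq2. Lif, a cytokine of this family, was at 40.9, 38.8 and 35.9 CPM at 7 weeks and 111, 131 and 121 CPM at 18 months (log2 fold change 1.65 ± 0.10, adjusted p = 1.56e-05). The spread at each age was small against the difference, and its call held in all 6 refits without 1 library (1.59 to 1.72). Stat3, the transcription factor downstream, was at 84.5, 82.9 and 84.8 against 119, 139.6 and 136 CPM (0.65 ± 0.09, adjusted p = 0.0015). Feedback inhibitors induced by STAT factors were higher too, with Socs3 at 22.7, 25.6 and 25.2 against 32.2, 45.2 and 66.5 CPM (0.96 ± 0.21) and Cish at 22.2, 22.7 and 24.4 against 32.2, 32.9 and 32.8 CPM (0.50 ± 0.09). Junb, a STAT3-responsive AP-1 factor, was at 0.94 ± 0.16. Il6 and Il11 were too low to be tested, with at most 1.21 and 0.446 CPM in any library. Without 7-week mouse 1 the list had 4 higher members, and Socs3 lost its call there.

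**Figure D3:**
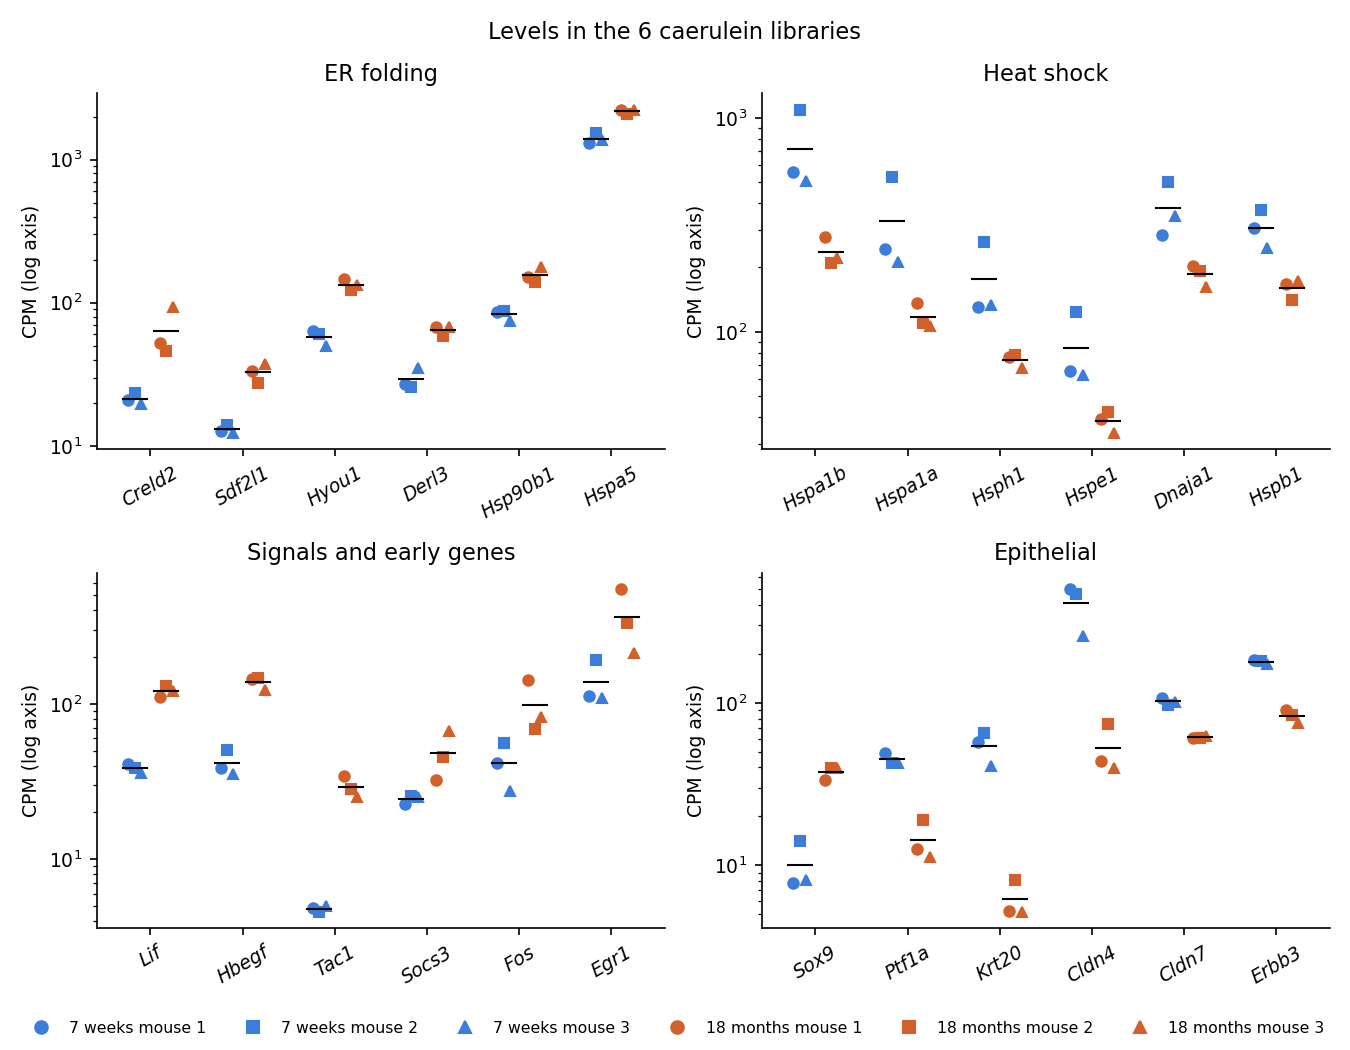
CPM on log axes in each of the 6 caerulein libraries for 24 genes in 4 panels, with 7 weeks in blue and 18 months in orange. Marker shapes give the mouse number (the labels state no pairing of mice), and bars are at the group means. Endoplasmic reticulum folding genes and signals sit higher at 18 months, heat shock genes sit lower with 7-week mouse 2 on top, and Krt20 and Cldn4 differ by more than their spread.

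In the EGF family a ligand was higher and receptors were lower at 18 months. Hbegf, a ligand of the EGF receptor that early response signals induce, was at 38.9, 50.4 and 35.5 CPM at 7 weeks and 144, 147 and 123 CPM at 18 months (1.73 ± 0.14, adjusted p = 5.92e-05). The feedback inhibitor Errfi1 was at 125, 134 and 58.6 against 322, 345 and 274 CPM (1.56 ± 0.25, adjusted p = 0.00245). The receptors Erbb3 and Erbb2 were lower, at 183, 181 and 174 against 90.4, 83.7 and 74.9 CPM (-1.11 ± 0.10, adjusted p = 0.000112) and 29.2, 28.7 and 32.2 against 18.8, 17.5 and 16.4 CPM (-0.77 ± 0.10, adjusted p = 0.000788). No library of one age reached those of the other in these 4 genes. Of 18 members tested, 5 were higher and 2 lower, and 3 were higher when 7-week mouse 1, 7-week mouse 3, 18-month mouse 1 or 18-month mouse 2 was left out. With library totals 2 were higher.

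Acinar identity genes were called in both directions, with 5 of 30 higher and 3 lower. Ptf1a, the factor that specifies acinar cells, was lower, at 49.4, 42.4 and 42.7 CPM at 7 weeks and 12.6, 18.9 and 11.2 CPM at 18 months (log2 fold change -1.65 ± 0.17, adjusted p = 0.000222). Its binding partner Rbpjl was higher, at 51.5, 45.5 and 33.8 against 72.8, 70.0 and 71.4 CPM (0.71 ± 0.13, adjusted p = 0.00649), as was Bhlha15, the secretory factor MIST1, at 104, 118 and 78.2 against 174, 153 and 169 CPM (0.72 ± 0.14, adjusted p = 0.00724). The connexin Gjb2 (1.01 ± 0.10) and the muscarinic receptor Chrm3 (0.99 ± 0.10) were higher and the granule SNARE Vamp8 lower (-0.56 ± 0.11). Of 37 digestive enzymes and granule proteins 4 were higher and 1 lower. Carboxypeptidase Cpa1 (0.35, adjusted p = 0.0711), elastase Cela1 (0.06, 0.806) and trypsinogen Prss2 (0.20, 0.302) did not pass in edgeR, and trypsinogen reads may be shared between paralogs. Amylase Amy2a5 was at 2161, 5628 and 3530.3 against 12476, 2531 and 3677 CPM, and the ages overlapped. It did not pass in edgeR (0.72, adjusted p = 0.393), but was called higher with no filter (adjusted p = 2.79e-07). Cpa1 passed with DESeq2 (adjusted p = 0.00443), with library totals (adjusted p = 0.0334) and without 18-month mouse 3 (adjusted p = 0.0149). The count of higher enzymes was 9 with DESeq2, 9 without 18-month mouse 3, 2 without 7-week mouse 3 and 1 without 7-week mouse 1 or 2. The trypsin inhibitor Spink1 was at 0.25 (adjusted p = 0.229).

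The receptor for caerulein, Cckar, was at 25.6, 19.2 and 26.5 against 27.1, 18.1 and 20.6 CPM, and the ages overlapped (-0.11, adjusted p = 0.716). Downstream of it, Rcan1, a calcineurin inhibitor induced by calcium signals, was at 1013, 909 and 988 CPM at 7 weeks and 2532, 2034 and 2535 CPM at 18 months (1.29 ± 0.12, adjusted p = 0.000145). The G protein Gnaq (0.73 ± 0.10), which couples the receptor to calcium release, and the calcium pump Atp2a2 (0.65 ± 0.09) were also higher, among 7 higher and 2 lower of 29 tested. Without 18-month mouse 2, 7-week mouse 1 or 7-week mouse 3 edgeR called 0 lower, and without 18-month mouse 1 or 3 it called 1.

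Metaplasia and injury genes had 6 of 32 higher and 7 lower with TMM, and 2 higher and 7 lower with library totals. Sox9, the duct transcription factor that acinar cells turn on in metaplasia, was at 7.75, 14.1 and 8.08 CPM at 7 weeks and 33.6, 39.7 and 39.5 CPM at 18 months (log2 fold change 1.90 ± 0.20, adjusted p = 0.000271). Several keratins and claudins of the list were lower, while Krt18 was higher, as given above. Beside Krt20 and Cldn4, Cldn3 was at 139, 128 and 106 against 65.2, 73.1 and 52.6 CPM (-0.97 ± 0.14), Cldn7 at 107, 97.6 and 102 against 60.4, 61.0 and 62.9 CPM (-0.73 ± 0.09) and Krt7 at 23.8, 22.5 and 19.4 against 7.58, 11.7 and 11.8 CPM (-1.09 ± 0.17). Krt23 (-0.68 ± 0.12) and the hyaluronan receptor Cd44 (-0.70 ± 0.15) completed the lower members. Krt8, the keratin of injured acinar cells, was at 0.20 (adjusted p = 0.236) and Krt19 at -0.43 (adjusted p = 0.0542). Kel, an endopeptidase, was at 0.14 (adjusted p = 0.405), and none of these 3 was called by edgeR in the 6 libraries. Krt19 was called lower by DESeq2 (-0.43, adjusted p = 0.0106), by edgeR with the stricter filter (adjusted p = 0.0493) or no filter (adjusted p = 0.00348), and without 18-month mouse 3 (adjusted p = 0.00371). Summed duct markers were at 564 to 648 CPM of library totals at 7 weeks and 487 to 620 CPM at 18 months. The ranges overlapped.

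Metabolic genes were called in both directions. With Slc2a1, Pfkfb3, an activator of glycolysis, was at 16.9, 12.9 and 10.8 against 30.0, 46.9 and 46.6 CPM (1.60 ± 0.19, adjusted p = 0.000593). Ndrg1, a hypoxia- and stress-induced gene, was at 605, 604 and 559.6 against 1354, 1386 and 1357 CPM (1.21 ± 0.10, adjusted p = 6.08e-05). Hif1a, the hypoxia factor, was at 0.78 ± 0.12. Car9, a carbonic anhydrase and common hypoxia marker, was lower, at 5.78, 4.85 and 4.01 against 1.25, 1.04 and 0.789 CPM (-2.22 ± 0.27, adjusted p = 0.000565). The glucose and hypoxia list thus had 5 of 27 higher and 3 lower. Of 26 fat oxidation genes 6 were lower and 2 higher. The coactivator Ppargc1a was at 5.04, 6.01 and 6.57 against 1.96, 2.83 and 3.22 CPM (-1.15 ± 0.23, adjusted p = 0.00832) and the fatty acid carrier Cd36 at -0.86 ± 0.19. Cd36 lost its call without 18-month mouse 2. The lower count fell to 2 without 18-month mouse 2 or 7-week mouse 2 and to 3 without 7-week mouse 1 or 3. Markers of fat cells, which also oxidise and store fat, summed to 74.9 to 84.4 CPM of library totals at 7 weeks and 40.9 to 53.5 CPM at 18 months, and 1 of the 4 tested was lower, Lpl (-0.74 ± 0.10). Their part in the fat genes was not tested. In glutathione metabolism Gclc, the rate-limiting enzyme of glutathione synthesis, was at 80.2, 74.7 and 107 CPM at 7 weeks and 245, 494 and 545 CPM at 18 months (2.29 ± 0.26, adjusted p = 0.000433). The antioxidant enzyme Srxn1 was higher (0.80 ± 0.14) and the glutathione peroxidase Gpx1 lower (-0.42 ± 0.08). Of 24 NRF2 target and glutathione genes tested, 3 were higher and 2 lower by edgeR, with a median log2 fold change of -0.08. At an unadjusted p below 0.05 there were 5 and 9, and by DESeq2 4 and 3.

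Lysosome, cytoskeleton, pathway and matrix genes gave further differences. Atp6v1b2, a subunit of the lysosomal proton pump, was at 44.3, 51.3 and 48.9 against 123, 165 and 151 CPM (1.60 ± 0.12, adjusted p = 5.07e-05) and cathepsin B, the protease that activates trypsinogen (Ctsb), at 177, 179 and 174 against 276, 303 and 326 CPM (0.78 ± 0.10, adjusted p = 0.000677). In the lysosome and autophagy list 6 of 32 were higher and 2 lower. Actin cytoskeleton and SRF target genes had 9 of 30 higher and 2 lower, with the linker Plec at 341, 294 and 293 against 613, 631 and 688 CPM (1.06 ± 0.11) and myosin Myh9 at 0.58 ± 0.10. That count was 3 without 7-week mouse 3, 4 without 18-month mouse 1 and 4 with library totals. Dtx4, a Deltex protein of Notch signalling, was at 68.0, 66.1 and 82.5 against 25.4, 27.02 and 21.9 CPM (-1.54 ± 0.12, adjusted p = 5.07e-05) and the Hippo effector Wwtr1 (TAZ) at 19.2, 24.8 and 21.8 against 11.1, 10.9 and 10.98 CPM (-0.99 ± 0.12). Among Notch, Wnt and Hippo genes 5 of 24 were lower and 2 higher. Matrix genes had 6 of 34 lower and 0 higher by edgeR, with 0 higher by DESeq2 or at an unadjusted p below 0.05. Lamb3, a laminin chain of epithelial basement membrane, was at 50.6, 58.7 and 63.1 against 16.8, 16.1 and 23.6 CPM (-1.61 ± 0.15, adjusted p = 0.000132), the collagen cross-linker Lox at -1.28 ± 0.18 and Sparc at -0.96 ± 0.15. The lower count was 3 without 18-month mouse 1 and 11 without 18-month mouse 3. Summed fibroblast markers were at 159 to 255 CPM of library totals at 7 weeks and 154 to 230.5 CPM at 18 months, and 0 of 14 were called by edgeR (3 lower at an unadjusted p below 0.05, 1 by DESeq2).

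Clock genes were called in both directions. The activator Npas2 was higher, at 2.76, 3.26 and 3.13 against 9.67, 7.40 and 7.37 CPM (1.42 ± 0.18, adjusted p = 0.000803), as was the repressor Nfil3 at 161, 155 and 152 against 328, 226 and 283 CPM (0.84 ± 0.13, adjusted p = 0.00214). The repressor Per1 was at 31.1, 32.6 and 26.4 against 18.3, 15.7 and 12.4 CPM (-0.95 ± 0.14) and Per2 at 8.97, 8.90 and 6.39 against 2.45, 3.53 and 4.47 CPM (-1.24 ± 0.23). The clock output factor Tef was at 10.3, 8.95 and 9.52 against 3.92, 4.45 and 5.06 CPM (-1.11 ± 0.16). Of 21 tested, 6 were higher and 7 lower, and 4 were lower without 18-month mouse 2 or 7-week mouse 3. With library totals 3 were higher. The hour of the day at which mice were sampled is not given in the sources used here.

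Inflammatory cytokines and chemokines were called in both directions, in shares to be read beside the 7.81% higher and 5.75% lower of all genes. Of 15 chemokines and colony stimulating factors tested 1 was higher and 2 lower by edgeR (3 and 6 at an unadjusted p below 0.05, 1 and 2 by DESeq2). Of 18 interleukin-1 and TNF family genes 1 was higher and 2 lower. Of 26 NF-kB genes 1 was higher and 0 lower by edgeR (5 lower at an unadjusted p below 0.05, 1 by DESeq2). The monocyte chemokine Ccl2 was at 10.1, 19.1 and 6.07 against 4.99, 7.81 and 7.10 CPM (-0.85, adjusted p = 0.133) and the neutrophil chemokines Cxcl1 and Cxcl2 at 1.27, 6.80 and 0.877 against 0.758, 1.56 and 0.395 CPM and 1.75, 4.94 and 1.13 against 1.16, 0.752 and 0.0658 CPM (adjusted p = 0.149 and 0.0938). In these 3 genes 7-week mouse 2 was the highest library and the ages overlapped. With no filter edgeR called all 3 lower (adjusted p = 1.37e-05, 3.29e-05 and 2.69e-05). That setting also called Amy2a5 higher (adjusted p = 2.79e-07), although its ages overlapped too, so a small p there can go with overlapping libraries. With the filter, edgeR called Ccl2 without 7-week mouse 3 (-1.14, adjusted p = 0.0356). Without 7-week mouse 2 it called none of these 3 chemokines (adjusted p = 0.504, 0.831 and 0.372). Il33, an alarmin, was higher at 18 months, at 1.70, 2.00 and 0.751 against 3.08, 10.2 and 4.87 CPM (1.99 ± 0.45, adjusted p = 0.0162), a call lost without 7-week mouse 1, 7-week mouse 3 or 18-month mouse 2. Il1rn, an interleukin-1 antagonist, was not called (adjusted p = 0.938), nor were the acute phase genes Lcn2 and Saa3 (adjusted p = 0.813 and 0.98). Il1b and Tnf, with at most 5.50 and 0.979 CPM, did not pass edgeR's expression filter and were not tested, nor were Cxcl5, Csf3 and Areg. In the authors' deposited table Il1b was lower at 18 months, with a log2 fold change of -4.05 and an adjusted p below 0.05. Fewer than 3 libraries held enough Il1b counts for edgeR's filter, and how far that difference rests on single libraries was not tested. Of 31 interferon-stimulated genes 1 was higher and 1 lower.

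Immune cell transcripts separated the ages by immunoglobulin and MHC class II genes. The 268 immunoglobulin genes in the table together gave 0.957, 0.831 and 0.865 CPM of library totals at 7 weeks and 56.2, 103 and 75.1 CPM at 18 months. No 7-week library came near an 18-month one. Ighm, the heavy chain of IgM, was at 0.69, 0.28 and 0 against 22.95, 52.7 and 25.2 CPM (6.61 ± 0.52, adjusted p = 5.92e-05) and the light chain Igkc at 0, 0.326 and 0.0626 against 17.6, 26.7 and 21.1 CPM (7.20 ± 0.41). Jchain, which joins secreted IgM and IgA, had 216 counts at 18 months and 1 at 7 weeks, a ratio of 221 (95% counting interval 39.3 to 8782). That interval pools the counts of the mice of each age and leaves out the spread between mice. MHC class II genes, which present antigen, had 4 of 6 tested higher by edgeR or DESeq2. At an unadjusted p below 0.05, 5 were higher, and 0 were lower by any of these measures. H2-Aa was at 5.52, 4.80 and 4.38 against 12.4, 14.3 and 17.8 CPM (1.59 ± 0.17, adjusted p = 0.000277), H2-Ab1 at 1.57 ± 0.19, H2-Eb1 at 1.52 ± 0.17 and their chaperone Cd74 at 16.7, 14.9 and 12.02 against 33.6, 34.8 and 49.7 CPM (1.43 ± 0.17). All 4 were called in each refit without 1 library, and 0 were called with all 11 libraries in the fit. There the library of untreated 7-week mouse 2 had 1220.0 CPM of immunoglobulin transcripts. The other untreated libraries had 1.02 and 0.941 CPM at 7 weeks and 19.6 and 47.9 CPM at 18 months, so immunoglobulin transcripts parted by age there too. Among 15 tested macrophage markers 3 were higher by edgeR, 4 by DESeq2 and 6 at an unadjusted p below 0.05. By each of these measures 0 were lower. Cd163, a scavenger receptor of resident macrophages, was at 6.68, 5.50 and 2.63 against 10.1, 15.2 and 13.5 CPM (1.37 ± 0.28, adjusted p = 0.00864), and Mrc1 was at 0.88 ± 0.20. The macrophage count was 6 without 7-week mouse 2 and 1 without 7-week mouse 3 or 18-month mouse 2. The 22 markers of T and NK cells were too low to be tested. Their sum was 0.185 to 1.07 CPM of library totals at 7 weeks and 2.17 to 2.95 CPM at 18 months. In untreated mice it was 0.804, 202 (mouse 2) and 0.428 CPM at 7 weeks and 2.28 and 2.79 CPM at 18 months.

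Calls of neutrophil markers changed with several libraries. S100a8 was at 1.33, 5.69 and 0.564 against 0.312, 0.0578 and 0.0658 CPM, S100a9 at 1.70, 6.90 and 0.626 against 0.357, 0.578 and 0.263 CPM and the growth factor receptor Csf3r at 1.70, 6.20 and 1.06 against 0.357, 0.463 and 0.789 CPM, and these 3 of the 5 tested were lower at 18 months (adjusted p = 0.0175, 0.0316 and 0.0282). The highest values were those of 7-week mouse 2, whose summed neutrophil markers reached 32.5 CPM of library totals, against 9.68 and 4.45 CPM in the other 7-week mice and 4.34 to 5.76 CPM at 18 months. The markers Camp and Elane were at 0 in all 6 libraries. Without 7-week mouse 2 edgeR called 0 of these markers. In that refit S100a8 did not pass the expression filter and was not tested, while S100a9 (adjusted p = 0.141) and Csf3r (adjusted p = 0.119) did not pass. Without 18-month mouse 2 edgeR also called 0, against 3 called with all 6 libraries by either edgeR or DESeq2. Without 18-month mouse 1 Csf3r and S100a9 did not pass (both adjusted p = 0.109), and without 18-month mouse 3 S100a9 did not (adjusted p = 0.0768). Islet markers varied between mice of one age, from 203 to 2862 CPM at 7 weeks and from 190 to 2642 CPM at 18 months, and 0 of 18 were called by edgeR or DESeq2 (1 lower at an unadjusted p below 0.05).

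**Figure D4:**
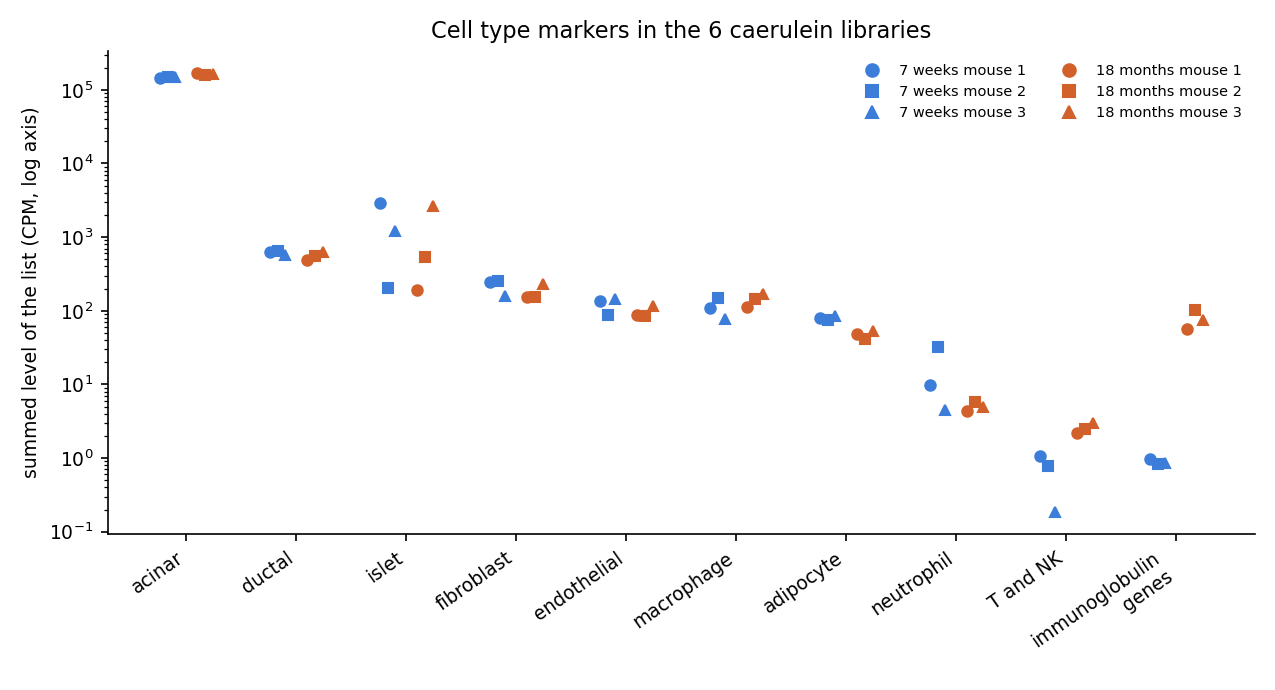
Summed level of 9 marker lists and of all immunoglobulin genes in the 6 caerulein libraries, in CPM of library totals on a log axis, with 7 weeks in blue, 18 months in orange and a marker shape per mouse number. Immunoglobulin genes are near 1 CPM at 7 weeks and at 56.2 to 103 CPM at 18 months, 7-week mouse 2 stands out for neutrophils, and islet sums spread widely at both ages.

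Of all genes tested 13.6% were called in either direction, the share beside which the next counts stand. Nuclear oxidative phosphorylation subunits had 0 of 34 higher and 1 lower by edgeR or DESeq2 (0 and 11 at an unadjusted p below 0.05), and mitochondrially encoded transcripts 0 of 12 in either direction by edgeR, DESeq2 or at an unadjusted p below 0.05. Of 27 p53 targets 1 was higher and 1 lower by edgeR (5 and 4 at an unadjusted p below 0.05, 3 and 1 by DESeq2). Cdkn1a, the cell cycle inhibitor p21, was at 366, 389 and 355 against 493, 410.5 and 466 CPM. It did not pass in edgeR (0.30, adjusted p = 0.0814) and was called higher by DESeq2 (0.30, adjusted p = 0.0217). Among 26 tested senescence genes 2 were higher and 1 lower, and Cdkn2a, the senescence marker p16, had 0 counts in each of the 6 libraries. Of 16 cell cycle genes tested 2 were higher and 1 lower, and the proliferation marker Mki67 was too low to be tested, with at most 0.689 CPM.

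A pair of long noncoding RNAs was named after its values were seen because the naming rule leaves out their kind of symbol. The lincRNA 1810007D17Rik (chromosome 19, 58606329 to 58629753) was at 0.955, 0.885 and 1.19 CPM at 7 weeks and 63.9, 58.5 and 50.8 CPM at 18 months, a log2 fold change of 5.85 ± 0.16 (adjusted p = 1.33e-08, the smallest of all genes tested). Another, 1200007C13Rik (chromosome 2, 167827693 to 167833646), was lower, at 2.60, 3.77 and 1.19 against 0.178, 0.174 and 0.132 CPM (-3.91 ± 0.54, adjusted p = 0.00116).

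To ask whether an age difference was particular to treated mice, the difference after caerulein was set against that of untreated mice in 1 model of all 11 libraries. Of 14113 genes tested, 2 had age differences called as differing between treatments (0.0142%). An unadjusted p below 0.05, which a share of genes reaches with no difference present, was seen in 1758. Atp6v1b2 was at 19.3, 20.3 and 19.6 CPM in untreated 7-week and 19.2 and 17.9 CPM in untreated 18-month libraries, an age difference of -0.09 ± 0.14. Its interaction was 1.71 ± 0.19 (adjusted p = 0.0159). Dtx4 was at 10.7, 10.8 and 10.99 CPM in untreated 7-week and 14.4 and 11.4 CPM in untreated 18-month libraries, with an interaction of -1.76 ± 0.20 (adjusted p = 0.0159). In untreated mice neither gene was called by age (adjusted p = 0.868 and 0.601). The next smallest adjusted p was 0.0598, for genes that included Zfp703 (2.41 ± 0.36), Gclc (2.91 ± 0.45), Plec (1.51 ± 0.23) and Cep85 (-2.10 ± 0.30). The library of untreated 7-week mouse 2 stood apart in markers of other cell types, in CPM of library totals. T and NK cell markers summed to 202 CPM, against 0.428 to 2.79 CPM in the other untreated libraries. Fat cell markers summed to 751 CPM, against 38.1 to 85.1 CPM. Its part in the count of 2 was not tested further than by a refit. Without the library of untreated 7-week mouse 2, 201 genes had a higher and 110 a lower interaction (2.29% of 13567 tested). With DESeq2 on all 11 libraries 179 and 100 did. Without that library Slc2a1 (2.13 ± 0.36, adjusted p = 0.0101), Ralgds (2.32 ± 0.34, adjusted p = 0.00533) and Ptf1a (-1.23 ± 0.25, adjusted p = 0.0261) passed. Of the endoplasmic reticulum genes, Hyou1 (1.59 ± 0.18, adjusted p = 0.00168), Sdf2l1 (1.31 ± 0.18, adjusted p = 0.00413) and Hspa5 (1.01 ± 0.16, adjusted p = 0.00752) passed. Sel1l passed downward (-0.74 ± 0.18, adjusted p = 0.0496) and Edem2 did not pass (adjusted p = 0.658). The heat shock genes named above did not pass, with the smallest adjusted p at 0.0623 for Hspe1 (-1.32 ± 0.34). No gene passed without 7-week caerulein mouse 1 or 3, 18-month caerulein mouse 2 or 3, or either untreated 18-month mouse.

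Some genes called after caerulein were also called by age in untreated mice. In the 11-library model 13 genes were called by age in untreated mice (0.0921%). Cobl was at 3.04, 2.28 and 2.88 CPM in untreated 7-week and 46.1 and 35.9 CPM in untreated 18-month libraries (log2 fold change 3.91 ± 0.17, adjusted p = 9.01e-07). Bglap3 had 3.19 ± 0.36. Reg2 was at 3335, 6480.0 and 8324 CPM in untreated 7-week and 152 and 52.4 CPM in untreated 18-month libraries (-5.89 ± 0.83, adjusted p = 0.0273), Reg3a had -6.20 ± 0.84 and Reg3b -5.76 ± 0.76. The untreated and treated differences of Reg2 were -5.89 and -2.44 in this model, and their difference did not pass (3.45 ± 0.88, adjusted p = 0.181). Without the library of untreated 7-week mouse 2 that difference passed for Reg2 (3.39 ± 0.82, adjusted p = 0.0498), Reg3b (3.83 ± 0.78, adjusted p = 0.0243) and Cobl (-0.92 ± 0.21, adjusted p = 0.0372), and did not for Reg3a (3.58 ± 0.98, adjusted p = 0.0779).

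**Figure D5:**
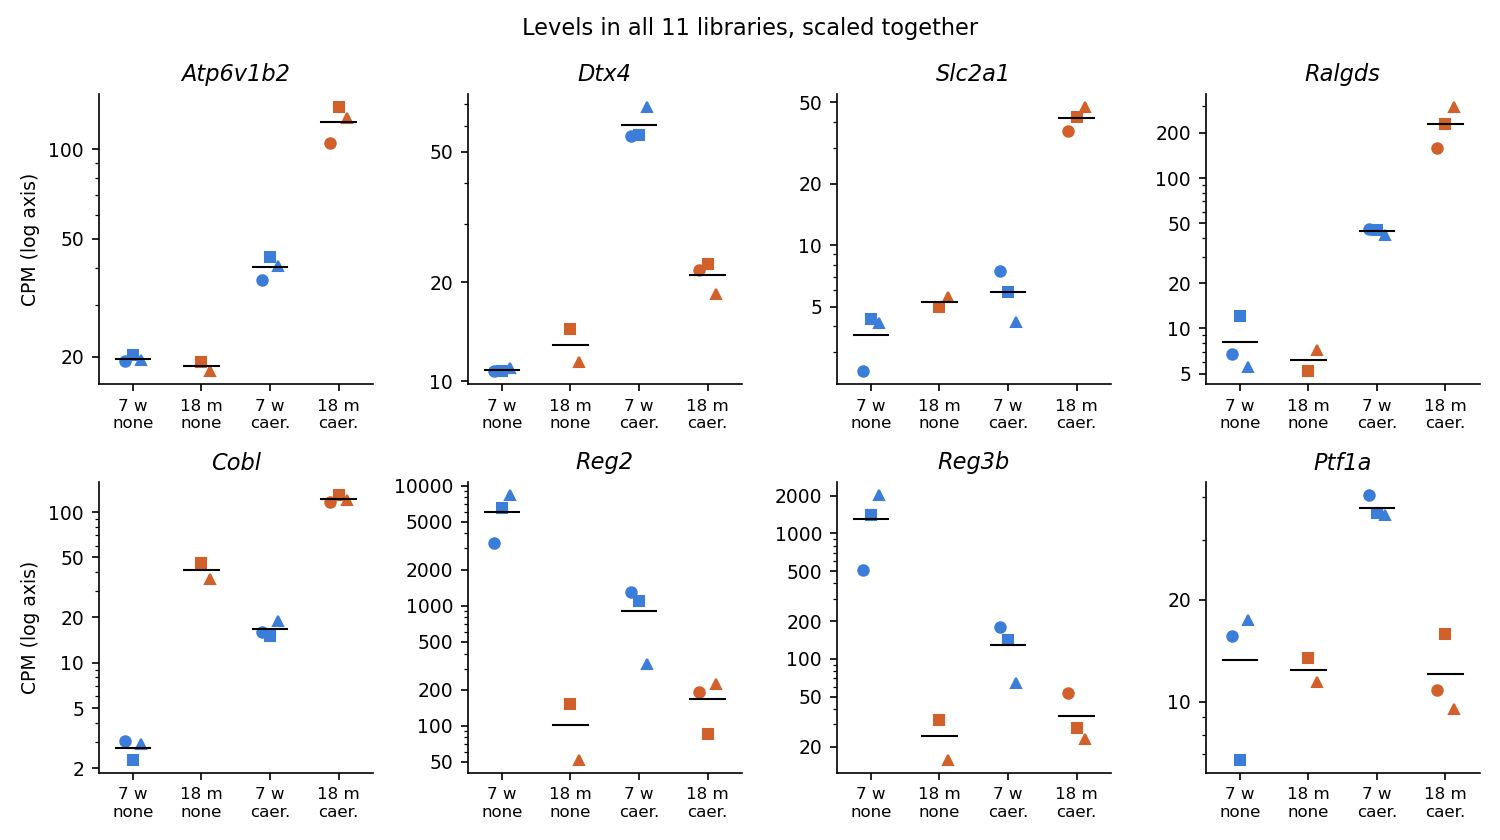
CPM on log axes for 8 genes in all 11 libraries scaled together, by age and treatment, with 7 weeks in blue, 18 months in orange, marker shapes for the mouse number and bars at the group means. Atp6v1b2 and Dtx4 part by age after caerulein, Cobl and the Reg genes part by age in both treatments, and Ptf1a is high in the 7-week caerulein libraries.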

How the data were processed

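Bulk messenger RNA sequencing of mouse pancreas was analysed from the gene counts deposited by the authors. Per the submitters' processing notes, HISAT2 2.0.5, featureCounts 1.5.0-p3 and the build mm10 were used, while no source used here gives a strand setting. The authors' deposited table of the same comparison holds log2 fold changes and adjusted p-values, and was used only for the overlap of calls and the value of Il1b.

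Of 54532 genes, 12439 passed edgeR's expression filter. Counts of the 6 caerulein libraries (14223190 to 24879534 per library) were scaled by TMM and tested with the quasi-likelihood test in edgeR 4.0.16 (R 4.3.3), with Benjamini-Hochberg adjustment over all genes tested and a threshold of 0.05. The age differences of treated and untreated mice were compared by an interaction term on all 11 libraries. limma 3.58.1 was loaded with edgeR, and DESeq2 1.42.0 served as an alternative. The fit was tested on simulated counts.

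Named genes are the 12 with the largest fold and the 5 most abundant in each direction, among called genes with libraries that do not overlap and at least 5 CPM in the higher group, without predicted, pseudogene or immunoglobulin loci. Each list adds at most 4 called members, taken in order of p, and 50 fixed genes complete the rule. A further 36 genes, among them Creld2, Hspa5, Egr1, Fos and Edem2, were named after their values were seen. The comparison, the 36 pathway lists and 18 marker lists were chosen with earlier results of these data known. Where nothing beyond the mouse number in the labels separates libraries of a group, p-values measure the spread between these libraries. Marker sums are CPM of library totals. Promoter windows come from RefSeq (GRCm38.p6).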

Additional observations from a re-analysis of the deposited data

Results flagged for a closer look

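The age difference of Atp6v1b2, a subunit of the lysosomal proton pump, differed between treated and untreated mice by the interaction term on all 11 libraries (1.71 ± 0.19 on the log2 scale, edgeR adjusted p = 0.0159). All 3 caerulein libraries of 18 months lay above those of 7 weeks.

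That of Dtx4, a Deltex protein of the Notch pathway, differed in the other direction (-1.76 ± 0.20, edgeR adjusted p = 0.0159), with all 3 caerulein libraries of 18 months below those of 7 weeks. Neither was called with library totals, nor without 7-week caerulein mouse 1 or 3, 18-month caerulein mouse 2 or 3, or either untreated 18-month mouse. With the mouse number as a replicate block Atp6v1b2 was called (1.78, adjusted p = 0.0369) and Dtx4 was not (-1.75, adjusted p = 0.0692).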

How the results depend on the processing

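The counts of genes called by age after caerulein (971 higher, 715 lower) moved most with a 1.5-fold minimum (144 and 81) and with all 11 libraries in the fit (347 and 179). Library totals gave 483 higher. Leaving out 1 library gave 581 to 811 higher and 376 to 532 lower genes. Of 211 named genes tested, 189 were called, none of these changed sign under any alternative, and 55 kept their side of the threshold in all of them. The difference in digestive share was -2.05 to -0.07 percentage points leaving out 1 library. The causes of these moves were not tested.

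For the interaction, leaving out 1 library gave 0 to 201 higher and 0 to 110 lower genes by edgeR, no filter 547 and 127, DESeq2 179 and 100, and library totals 0 and 0. Leaving out an untreated 18-month library leaves 1 in that group, assumed to vary like the others.

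The labels state no pairing of mice by number. Same-numbered mice of both ages correlated at -0.21, 0.12 and -0.02 in their deviations from the group means, and different-numbered mice at -0.27 to 0.32. Deviations from a mean of 3 libraries depend on one another, so these values cannot decide whether the mouse number pairs libraries. With the number as a replicate block 784 genes were higher and 520 lower, and the interaction called 1 and 1, of which 1 was shared with the fit without the block (Atp6v1b2, while Dtx4 lost its call). The interaction of Ugt2b34 was then -0.31.

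Sign changes were seen only in genes or interactions that had not passed. With library totals these were Il1rn (-0.0366), Reg1 (-0.0625), Saa3 (-0.10), Cela1 (-0.0373) and Hspa8 (-0.0152), and with all 11 libraries Nupr1 (0.00536). Leaving out 1 library gave log2 fold changes on both sides of 0 for Il1rn -0.16 to 0.53, Reg1 -0.11 to 0.20, Saa3 -0.94 to 1.00, Cela1 -0.00294 to 0.14, Hspa8 -0.0505 to 0.22, Nupr1 -0.0643 to 0.0608, Reg3g -0.89 to 0.0829, Lcn2 -0.44 to 0.0518, Amy2a5 -0.27 to 1.13, Cckar -0.28 to 0.0136 and Ddit3 -0.60 to 0.11. The interactions that did so were Ugt2b34 -0.43 to 0.53, Krt20 -1.08 to 2.84, Cfap53 -0.0939 to 1.52 and Bglap3 -0.74 to 0.0127.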
